A study of Mus musculus with 6 samples.

Results

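The 77 mitochondrial ribosomal protein genes described here are the protein-coding mouse genes whose symbol is Mrpl or Mrps followed by a number, and which held 10 or more reads summed over the 6 libraries. They were picked by the symbol, with earlier results of these data known. The symbol rule matched 78 genes, of which 77 passed the read limit, among 19452 genes that passed it in the series. Of the 77, 48 carry an Mrpl symbol (large subunit) and 29 an Mrps symbol (small subunit). The study profiled poly(A)+ RNA from Flp-In 3T3 cells, an established mouse embryonic fibroblast line, to ask how gene expression changes when the SAFB family of nuclear RNA-binding proteins is depleted. The 3 control libraries came from cells given a control treatment, and the 3 SAFB KD libraries (the labels' triple KD) from cells in which Safb, Safb2 and Sltm were knocked down together by transient siRNA transfection, harvested on the third day. The series describes the 3 libraries of each group as biological replicates of this single line.

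The mitochondrial ribosome makes the few proteins encoded by mitochondrial DNA, all of them core subunits of the oxidative phosphorylation complexes. Its ribosomal RNAs come from the mitochondrial genome, but all of its proteins are encoded in the nucleus, made in the cytosol and imported. Some of these proteins have a counterpart in the bacterial ribosome, and others were added during the evolution of mitochondria and are found only there. The large subunit carries the peptidyl transferase centre and the exit tunnel, and the small subunit decodes the messenger RNA.

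Each library held 33323307 to 53441129 reads assigned to genes. Values are given as CPM, counts scaled to a common library size, after scaling of the library totals by the trimmed mean of M-values, and differences as log2 fold changes of SAFB KD over control, with 3 libraries in each group behind every value. The targets were lower in every SAFB KD library than in any control library, with Safb at 90.2, 94.8 and 96.1 CPM in the control libraries and 48.5, 46.8 and 44.5 CPM in the SAFB KD libraries, Safb2 at 45.7, 46.0 and 49.0 CPM in the control libraries and 30.4, 29.7 and 29.9 CPM in the SAFB KD libraries, and Sltm at 96.3, 98.8 and 106 CPM in the control libraries and 61.0, 61.8 and 62.0 CPM in the SAFB KD libraries. In a principal component analysis, the first component separated the groups and held 44.9% of the variance, while the second (16.3%) set control 3 apart at -44.2 from the other control libraries at 23.1 and 26.5. Of 8 fibroblast markers, 7 were lower in SAFB KD and 0 were higher (at an unadjusted p under 0.05 also 0, and 0 by DESeq2 and limma-voom). Postn (-1.43) and the growth factor receptor gene Pdgfrb (-1.13) fell furthest on the log2 scale, with Pdgfrb at 123, 119 and 111 CPM in the control libraries and 52.5, 55.1 and 53.5 CPM in the SAFB KD libraries, and the collagen gene Col1a2 was at 5352, 5007 and 4808 CPM in the control libraries and 3822, 3959 and 3856 CPM in the SAFB KD libraries (-0.38). Epcam, Krt5, Myod1 and Myog, markers of epithelium and muscle, had no read in any library. Of 4 leukocyte markers 1 was higher, of 3 endothelial markers 1, of 3 muscle markers 1 (Des, a call that neither DESeq2 nor limma-voom made) and of 4 epithelial markers 0. Cd68 went from 4.15, 3.82 and 3.48 to 6.37, 7.93 and 8.33 CPM, Pecam1 from 1.15, 0.689 and 0.744 to 1.96, 1.28 and 1.14 CPM, and Des from 2.72, 2.90 and 2.62 to 3.55, 4.06 and 3.05 CPM, while Ptprc and Cd3e had at most 3 reads in any library. The summed level of the leukocyte markers was 3.48 to 4.19 CPM in control and 6.45 to 8.43 CPM in SAFB KD libraries, and that of the endothelial markers 7.89 to 8.39 and 9.38 to 10.4 CPM. The part of these markers in the results below was not tested.

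Most of the mitochondrial ribosomal protein genes were higher after SAFB depletion, each by a small amount. In the edgeR quasi-likelihood test at an adjusted p under 0.05, 56 of the 77 were higher, 1 was lower and 20 were not called. Over all genes tested, 21.4% were called higher and 20.1% lower (41.5% in either direction), and over the 8901 protein-coding genes with a mean of 10 CPM or more, 35.9% were higher and 29.9% lower. The median log2 fold change of the 77 genes was 0.20, with the middle 50% of genes between 0.11 and 0.33, whereas the median over all genes tested was 0.01. Of all 13506 protein-coding genes tested, 53.3% were called in either direction. The fold change was positive for 70 of the 77. The SAFB KD libraries were all above the control libraries for 55 of the 77 genes and all below for 2, against 25.3% and 23.7% of all genes tested. Of the 8901 protein-coding genes with a mean of 10 CPM or more, they were all above for 3432 and all below for 2876. None of the 77 passed a test for a change beyond 2-fold (edgeR glmTreat, 0 genes; at an unadjusted p under 0.05 also 0, and 0 by DESeq2 and limma-voom), which 1.22% of all genes tested passed (0.699% higher, 0.524% lower). Members share the 6 libraries and are not replicates of one another, so their median carries no test. In bulk RNA, a share of cells that changed cannot be told apart from a change of RNA in each cell.

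**Figure D1:**
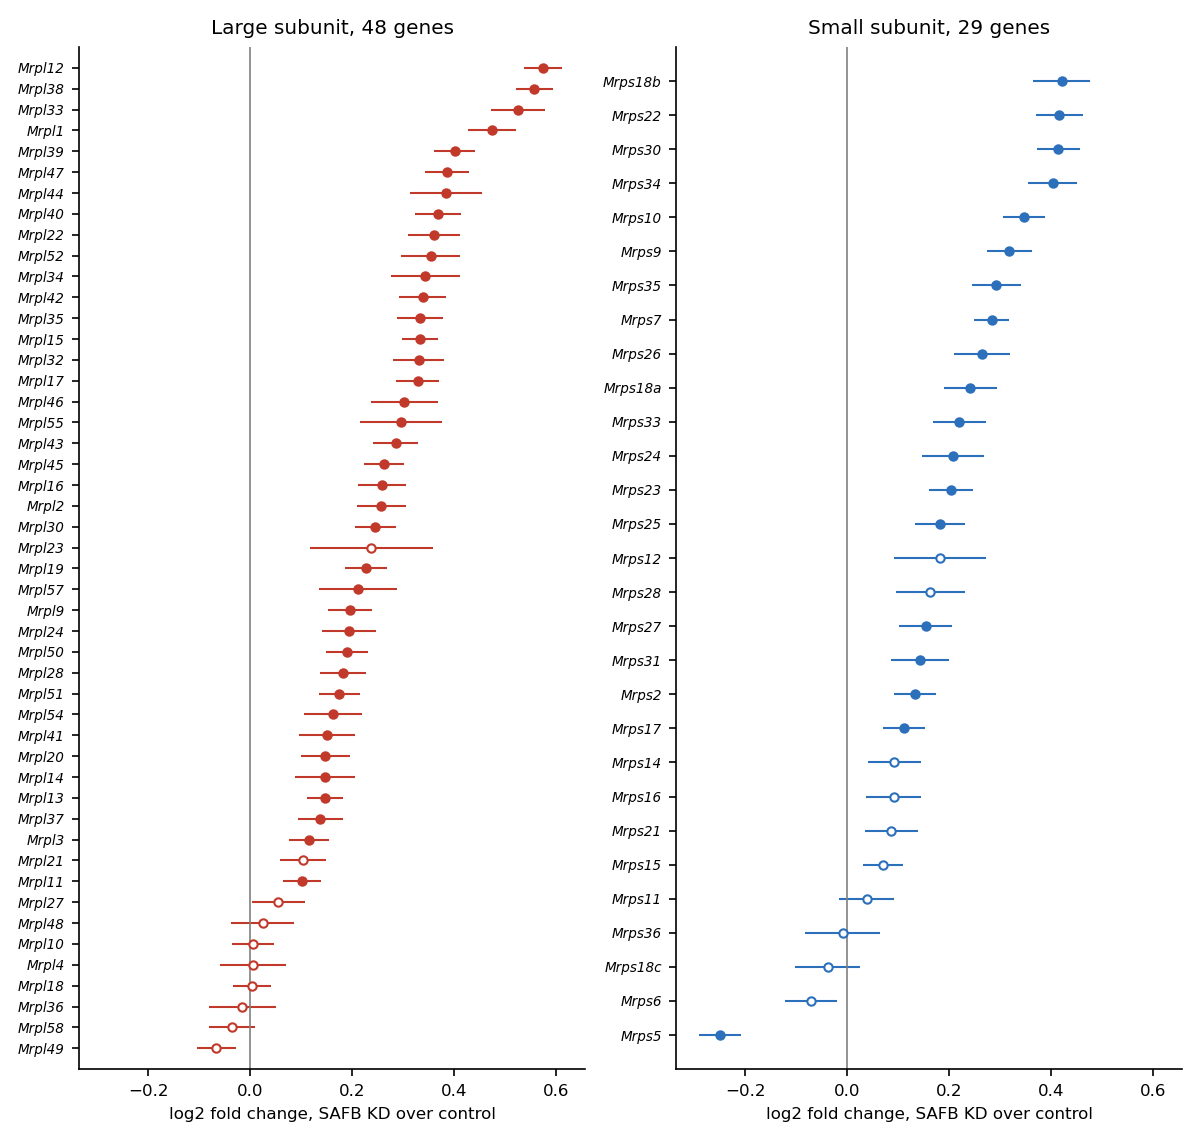
Log2 fold change of SAFB KD over control (x axis) for each of the 77 genes, with Mrpl symbols on the left and Mrps symbols on the right. Points are edgeR estimates with their standard errors, filled where the adjusted p was under 0.05 and open otherwise, and the filled points lie to the right of 0 for 56 genes and to the left for Mrps5 alone.

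Summed over the 77 genes, the level was 3002, 3013 and 3019 CPM in the control libraries and 3489, 3492 and 3539 CPM in the SAFB KD libraries. The sum was thus higher by 16.4%, and the gap between the groups was larger than the spread within either. The large subunit genes summed to 1958, 1963 and 1976 CPM in control and 2306, 2296 and 2339 CPM in SAFB KD libraries, a rise of 17.7%. The small subunit genes summed to 1044, 1050 and 1044 CPM in control and 1183, 1196 and 1200 CPM in SAFB KD libraries, a rise of 14.1%. In no case did the libraries of the groups overlap.

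A greater share of the large than of the small subunit genes was called higher. Of the 48 Mrpl genes, 38 (79.2%) were higher and 0 lower, with a median log2 fold change of 0.23, and of the 29 Mrps genes, 18 (62.1%) were higher and 1 lower, with a median of 0.18. At an unadjusted p under 0.05 the count of lower Mrpl genes was also 0, and it was 0 by DESeq2 and limma-voom. The ratio of the summed levels, large over small, was 1.88, 1.87 and 1.89 in the control libraries and 1.95, 1.92 and 1.95 in the SAFB KD libraries. The groups did not overlap, and the values of control 3 and SAFB KD 2 lay closest. The difference between the medians of the subunits was 0.05 on the log2 scale. The standard error of a single gene (median 0.05) does not measure the uncertainty of that difference, which was not tested. Symbols do not always follow structure. Mrps18a and Mrps30 belong to the large subunit in the assembled ribosome, and Mrps36 is a subunit of the alpha-ketoglutarate dehydrogenase complex. Assigned by structure, 40 of 50 large subunit genes were higher (median 0.24), against 16 of 26 small subunit genes (median 0.17), with 1 of the latter lower.

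**Figure D2:**
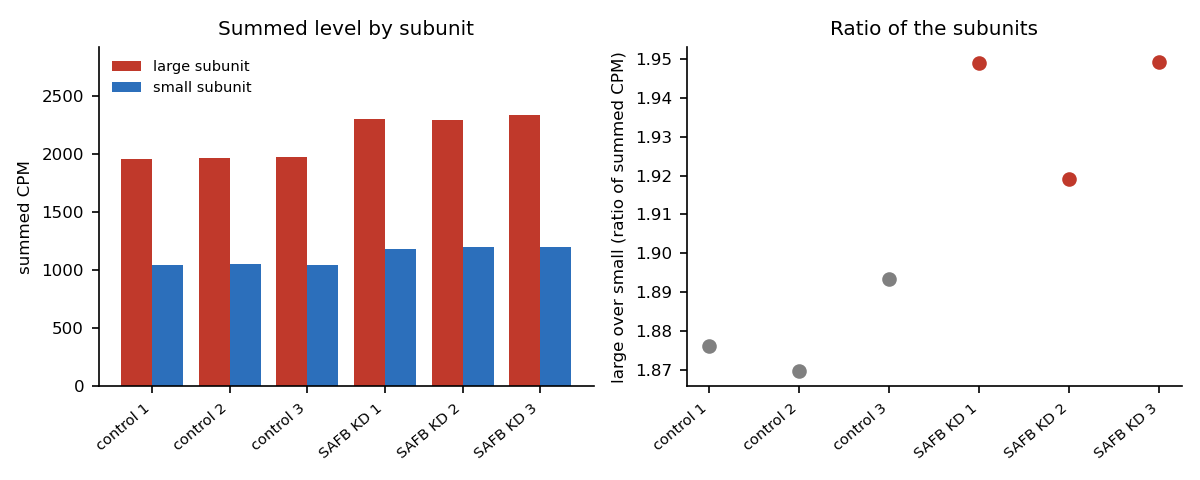
Left, summed CPM (y axis, from 0) of the 48 Mrpl and 29 Mrps genes in each of the 6 libraries. Right, the ratio of the sums in each library on an axis that does not start at 0, with the control libraries at 1.87 to 1.89 and the SAFB KD libraries at 1.92 to 1.95.

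The genes of proteins that are found only in the mitochondrial ribosome and those with a bacterial counterpart differed in how many were called. Of 29 mitochondria-specific members, 26 were higher and 0 lower (also 0 at an unadjusted p under 0.05, by DESeq2 and by limma-voom), with a median log2 fold change of 0.26. Of 45 members with a bacterial homologue, 28 were higher and 1 lower, with a median of 0.18. The gap was widest in the small subunit, where 9 of 9 mitochondria-specific genes were higher (median 0.22) and 6 of 16 genes with a bacterial homologue (37.5%), with 1 lower (median 0.10). The latter share is close to the 35.9% of protein-coding genes with a mean of 10 CPM or more. In the large subunit, 17 of 20 and 22 of 29 were higher. These counts of higher genes are from edgeR, and limma-voom gave the same. DESeq2 called 22 of the 29 mitochondria-specific members higher and 25 of the 45 with a bacterial homologue. By subunit its counts were 8 of 9 and 5 of 16 in the small, and 14 of 20 and 20 of 29 in the large. The gap in the large subunit was thus not seen with DESeq2. The remaining 3 members, Mrps18a, Mrps18b and Mrps36, were placed in neither class. Of the related Mrps18 genes, only Mrps18c (-0.04, not called) was counted, among the small subunit genes with a bacterial homologue. Mrps18b (0.42) and Mrps18a (0.24), both called higher, were left out, so the small subunit share depends on this placement. The lists were written with earlier results of these data known. These counts describe the lists and were not tested against each other.

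Among proteins of the large subunit stalks, which bind translation factors or the departing transfer RNA, the genes diverged. Mrpl12, which encodes the stalk protein that contacts the elongation factors, stood at 62.5, 61.0 and 57.5 CPM in the control libraries and 91.9, 89.2 and 88.9 CPM in the SAFB KD libraries. This was the greatest rise of the 77, with a log2 fold change of 0.57 ± 0.0377 (SE) and an adjusted p of 4.81e-16. Mrpl1, the protein of the other stalk, was at 32.5, 32.1 and 35.3 CPM in the control libraries and 45.8, 47.7 and 45.2 CPM in the SAFB KD libraries, with a log2 fold change of 0.47 ± 0.0478 (SE) and an adjusted p of 7.14e-11. Mrpl10, which anchors Mrpl12 to the ribosome, was at 63.8, 60.4 and 57.4 CPM in the control libraries and 59.2, 62.9 and 60.3 CPM in the SAFB KD libraries, and its groups overlapped. Its log2 fold change was 0.01 ± 0.0416 (SE) with a 95% interval of -0.08 to 0.09 (adjusted p = 0.939), so a rise of the size seen in Mrpl12 lies outside its interval. Mrpl11, at the base of the same stalk, was called with a log2 fold change of 0.10 (adjusted p = 0.0282), a call that was lost without any one of control 1, control 2, SAFB KD 1 or SAFB KD 2.

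The central protuberance of the large subunit, the prominence that faces the small subunit, has been extended by mitochondria-specific proteins. Its gene Mrpl38 was at 62.3, 62.2 and 61.0 CPM in the control libraries and 88.3, 92.4 and 92.1 CPM in the SAFB KD libraries, the next highest rise after Mrpl12, with a log2 fold change of 0.56 ± 0.0363 (SE) and an adjusted p of 3.82e-16. Mrpl40, of the same region, was at 33.8, 35.6 and 35.7 CPM in the control libraries and 45.1, 44.3 and 46.2 CPM in the SAFB KD libraries, with a log2 fold change of 0.37 ± 0.0461 (SE) and an adjusted p of 1.16e-08. Mrpl52 (0.35) and Mrpl46 (0.30) were also called higher. Mrpl48 (log2 fold change 0.02, 95% interval -0.10 to 0.15), Mrpl58, a peptidyl-tRNA hydrolase that is also built into the ribosome (-0.04, -0.13 to 0.06), and Mrpl18 were not called. Mrpl18 had the highest level per kilobase of all 77 and stood at 82.1, 84.4 and 89.4 CPM in the control libraries and 87.7, 82.6 and 85.9 CPM in the SAFB KD libraries. Its log2 fold change was 0.00305 with a 95% interval of -0.07 to 0.08, and its libraries overlapped fully.

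Mrpl39, a mitochondria-specific protein of the large subunit, was at 49.8, 50.7 and 51.3 CPM in the control libraries and 68.1, 64.1 and 68.3 CPM in the SAFB KD libraries. The log2 fold change was 0.40 ± 0.0403 (SE, adjusted p = 6.49e-11). Mrpl44, whose protein resembles ribonuclease III, was at 15.5, 13.4 and 12.9 CPM in the control libraries and 18.9, 17.1 and 18.7 CPM in the SAFB KD libraries. Its log2 fold change was 0.38 ± 0.0704 (SE, adjusted p = 1.69e-05), and every SAFB KD library was above every control library although the level was low. Mrpl47, the homologue of a bacterial protein at the exit of the tunnel, was at 41.5, 44.6 and 43.7 CPM in the control libraries and 55.3, 57.4 and 56.9 CPM in the SAFB KD libraries. It rose by 0.39 ± 0.0428 (SE, adjusted p = 6.91e-10) on the log2 scale. Mrpl22 and Mrpl24, also of the tunnel or its exit, were higher by 0.36 and 0.19 on the log2 scale, and Mrpl45, which ties the ribosome to the inner membrane, by 0.26. Mrpl23, of the same place, had the lowest level of all, at 3.32, 4.16 and 3.84 CPM in the control libraries and 4.55, 4.38 and 4.40 CPM in the SAFB KD libraries. Its log2 fold change of 0.24 ± 0.12 (SE) was not called (adjusted p = 0.118, 95% interval -0.01 to 0.48).

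Mrpl33, a small protein of the large subunit, was at 34.5, 41.4 and 44.1 CPM in the control libraries and 56.6, 57.9 and 57.7 CPM in the SAFB KD libraries. The gene rose by 0.53 ± 0.0535 (SE, adjusted p = 8.88e-11) on the log2 scale, and control 1 lay below the other control libraries. As annotated, Mrpl33 spans 67450 bases, and its RefSeq start lies 17016 bases from the annotated start. Which of its transcripts the reads came from was not examined. Of the other small proteins with bacterial homologues, Mrpl32 (0.33), Mrpl34 (0.34) and Mrpl35 (0.33) were higher, while Mrpl36 was not called (-0.02, 95% interval -0.15 to 0.12). Mrps30, counted with the small subunit by its symbol but a large subunit protein by structure, was at 55.4, 52.0 and 53.1 CPM in the control libraries and 68.2, 70.0 and 75.5 CPM in the SAFB KD libraries. Its log2 fold change was 0.41 ± 0.0418 (SE, adjusted p = 7.12e-11), and SAFB KD 3 was its highest library.

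Of the mitochondria-specific genes of the small subunit, Mrps22 and Mrps34 had the greatest rises. Mrps22 was at 34.9, 36.6 and 37.6 CPM in the control libraries and 49.6, 48.4 and 47.5 CPM in the SAFB KD libraries, with a log2 fold change of 0.42 ± 0.0455 (SE) and an adjusted p of 5.18e-10. Mrps34, needed for the stability of the small subunit, was at 30.4, 31.6 and 30.9 CPM in the control libraries and 40.8, 41.9 and 40.2 CPM in the SAFB KD libraries, with a log2 fold change of 0.40 ± 0.0476 (SE) and an adjusted p of 3.28e-09. Exons of Nme3 on the same strand cover 37.0% of its merged exons, and reads there that overlap both genes are left out of its count. Mrps35, Mrps26, Mrps33, Mrps23, Mrps25, Mrps27 and Mrps31 were also higher, by 0.14 to 0.29, though Mrps31 and Mrps27 lost their calls without control 2, control 3 or SAFB KD 3, and Mrps31 also without SAFB KD 2.

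The only fall was that of a small subunit gene with a bacterial homologue. Mrps5, whose bacterial counterpart shapes the accuracy of decoding, was at 57.5, 57.9 and 59.8 CPM in the control libraries and 50.6, 49.1 and 47.7 CPM in the SAFB KD libraries. It was lower in every SAFB KD library, with a log2 fold change of -0.25 ± 0.0412 (SE) and an adjusted p of 3.14e-06. Mrps7, a protein of the head of the subunit, was at 94.7, 95.9 and 92.6 CPM in the control libraries and 116, 111 and 118 CPM in the SAFB KD libraries and rose, with a log2 fold change of 0.28 ± 0.0344 (SE, adjusted p = 5.86e-09). Mrps10 (0.35) and Mrps9 (0.32) rose too. Mrps12, of the decoding centre, was not called (log2 fold change 0.18, adjusted p = 0.109), and neither were Mrps28 (0.16, adjusted p = 0.0513), Mrps14 (0.09), Mrps16 (0.09), Mrps11 (0.04) and Mrps6 (-0.07). Mrps21 stood at 36.9, 36.7 and 32.1 CPM in the control libraries and 35.7, 37.2 and 39.3 CPM in the SAFB KD libraries, and its log2 fold change of 0.09 ± 0.0526 (SE) was not called (95% interval -0.02 to 0.19). Mrps15 stood at 63.0, 61.2 and 63.0 CPM in the control libraries and 67.2, 63.6 and 65.8 CPM in the SAFB KD libraries, and its log2 fold change of 0.07 ± 0.0385 (SE) was likewise not called (95% interval -0.01 to 0.15).

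**Figure D3:**
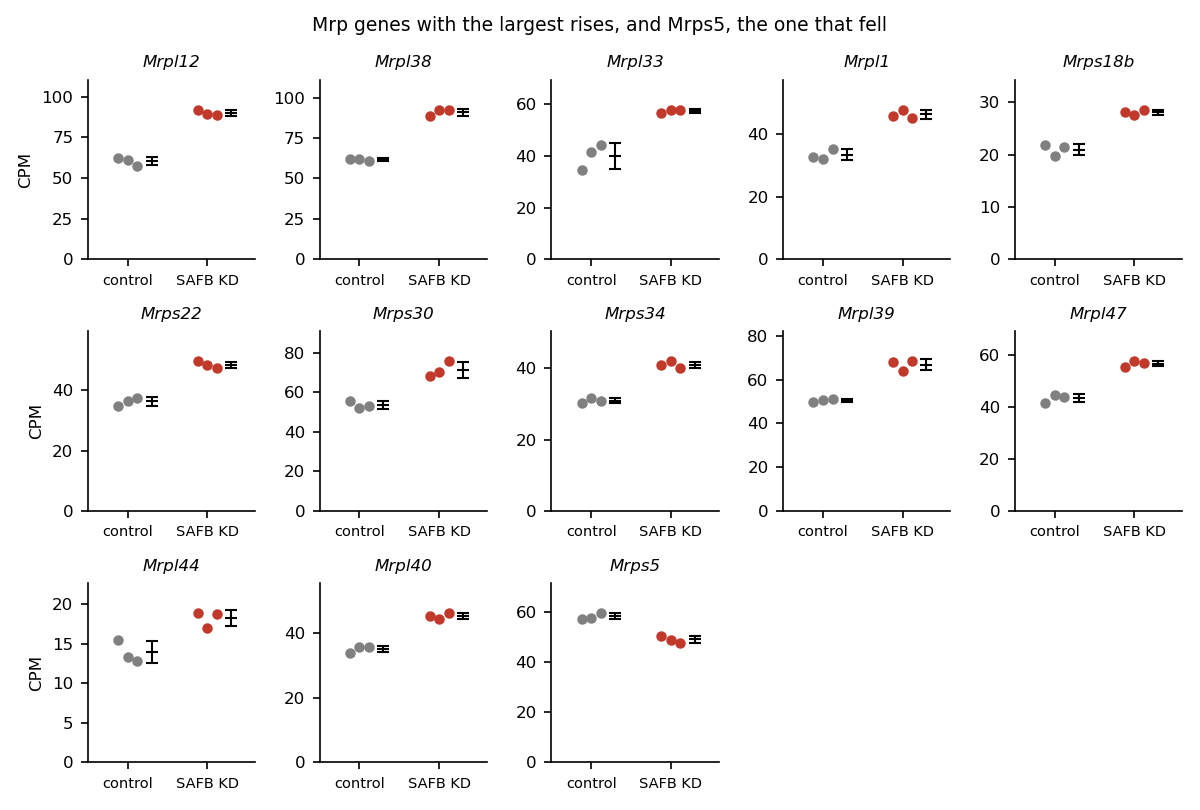
CPM (y axis, from 0) in each of the 3 control (grey) and 3 SAFB KD (red) libraries for the 12 genes with the greatest rises and for Mrps5, with mean and SD as black bars beside the points. The SAFB KD libraries lie above the control libraries in the 12 genes and below them in Mrps5.

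The Mrps18 genes encode related proteins that occupy different places in the ribosome. Mrps18b was at 21.8, 19.7 and 21.4 CPM in the control libraries and 28.1, 27.5 and 28.5 CPM in the SAFB KD libraries, with a log2 fold change of 0.42 ± 0.0564 (SE, adjusted p = 5.13e-08). Mrps18a was at 29.4, 27.6 and 26.6 CPM in the control libraries and 33.2, 33.1 and 32.8 CPM in the SAFB KD libraries, with a log2 fold change of 0.24 ± 0.0517 (SE, adjusted p = 1.59e-04). Mrps18c was at 19.2, 22.8 and 22.0 CPM in the control libraries and 21.6, 21.1 and 19.6 CPM in the SAFB KD libraries, with a log2 fold change of -0.04 ± 0.0639 (SE) and a 95% interval of -0.17 to 0.09. The groups did not overlap for Mrps18b and Mrps18a and overlapped for Mrps18c, whose interval lies below those of Mrps18b (0.31 to 0.54) and Mrps18a (0.14 to 0.35). Mrps36, which has no place in the ribosome, was at 11.1, 11.4 and 12.1 CPM in the control libraries and 11.8, 11.0 and 11.5 CPM in the SAFB KD libraries, and its log2 fold change of -0.01 ± 0.0744 (SE) was not called (95% interval -0.16 to 0.14).

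Levels between genes are compared as RPKM, which is CPM divided by the length of the merged exons in kilobases. In control libraries the highest large subunit levels were those of Mrpl18 (61.0 ± 2.69 RPKM, SD, n = 3), Mrpl12 (39.4 ± 1.67) and Mrpl10 (35.4 ± 1.87), and the highest small subunit levels those of Mrps21 (47.7 ± 3.70), Mrps7 (45.6 ± 0.795) and Mrps15 (36.8 ± 0.611). The spreads of Mrps21 and Mrps7 overlapped, as did those of Mrps15 and Mrpl10. After SAFB depletion Mrpl12, at 58.7 ± 1.09 RPKM, came close to Mrpl18, at 61.1 ± 1.85 RPKM. The lowest levels were those of Mrpl23 (0.773 ± 0.0870 RPKM) and Mrpl48 (2.17 ± 0.0411 RPKM). Merged exons take in every annotated transcript, so such a level depends on the length used. Mrpl48, with 8152 bases of merged exons, had a control mean of 17.7 CPM, above the 7.83 CPM of Mrps12. The median level was 13.0 RPKM, above the 5.15 RPKM of all protein-coding genes tested. The members are also shorter and have fewer exons, with a median of 2533 bases of merged exons, 5 exons and a span of 7905 bases, against 4364.5 bases, 9 exons and 23539.5 bases for all protein-coding genes tested. Across the 77 genes the log2 fold change had a Spearman correlation of 0.17 with the exonic length, -0.0044 with the span and -0.19 with the control level, and across the 13506 protein-coding genes tested these were -0.18, -0.14 and 0.11. The genes share their libraries, so the correlations are descriptions only.

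Many of these genes start close to a gene on the opposite strand. A protein-coding gene on the opposite strand began within 1000 bases of the start of 33 of the 77 genes (42.9%), namely 24 of 48 large and 9 of 29 small subunit genes, against 15.2% of all protein-coding genes tested. In 18 of the 33 the genes lie apart, and in 15 their starts face into each other, so that the ends of the genes overlap. Mrpl46 and Mrps11 are each the neighbour of the other, so their pair is counted from both sides. Of the 33 members, 22 were higher, while of their neighbours 15 were higher, 4 lower and 14 not called. Of all protein-coding genes tested, 27.6% were higher and 25.7% lower. The median log2 fold change was 0.18 for these members and 0.11 for the neighbours, and it was 0.23 for the 44 other members, of which 34 were higher. The neighbour was higher beside 10 of the 22 members that rose and beside 5 of the 10 that were not called, a similar share. Whether the calls of paired genes go together was not tested. Mrps34 and the endonuclease subunit gene Eme2 (0.50) start 29 bases apart, and Mrpl44 and Wdfy1 (0.42), whose ends overlap, have starts 125 bases from each other. Mrpl54 rose by 0.16, a call lost without control 2, control 3, SAFB KD 2 or SAFB KD 3, and Apba3, which starts 26 bases away, by 0.58 on the log2 scale. Mrpl32 and the proteasome gene Psma2 (0.21), and Mrpl47 and the complex I gene Ndufb5 (0.18), rose together as well.

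Elsewhere the neighbours parted. In 3 pairs the member rose and the neighbour fell, which were Mrps7 with Gga3 (-0.20, adjusted p = 0.00167), Mrpl51 with the condensin gene Ncapd2 (-0.19, adjusted p = 7.76e-06), and Mrpl37 with Cyb5rl (-0.34, adjusted p = 0.00967). The call of Mrpl37 was lost without control 2, control 3 or SAFB KD 1. In 5 pairs the member was not called and the neighbour was higher. Mrpl18 lies beside Tcp1, a chaperonin gene that went from 529.6 ± 6.86 to 631 ± 13.6 CPM (mean and SD, n = 3 per group), with a log2 fold change of 0.25 and an adjusted p of 1.29e-09. Mrpl49 lies beside Fau, which encodes a cytosolic ribosomal protein and rose by 0.24 (adjusted p = 1.24e-08), whereas Mrpl49 itself was at 62.9, 63.1 and 61.7 CPM in the control libraries and 59.6, 59.9 and 59.7 CPM in the SAFB KD libraries and was not called (-0.07, adjusted p = 0.168) although its groups did not overlap. Mrpl46 and Mrps11 are neighbours of each other, with starts 412 bases from each other and ends that overlap, and Mrpl46 rose by 0.30 (adjusted p = 2.27e-04) while Mrps11 had a log2 fold change of 0.04 (95% interval -0.07 to 0.15). Mrps5, the gene that fell, starts 128 bases from Zfp661, which was not called (-0.15, adjusted p = 0.248). Mrps18b rose beside Ppp1r10 (0.00289, adjusted p = 0.971), and Mrpl40 beside the histone chaperone gene Hira (0.00155, adjusted p = 0.992), neither of which was called.

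**Figure D4:**
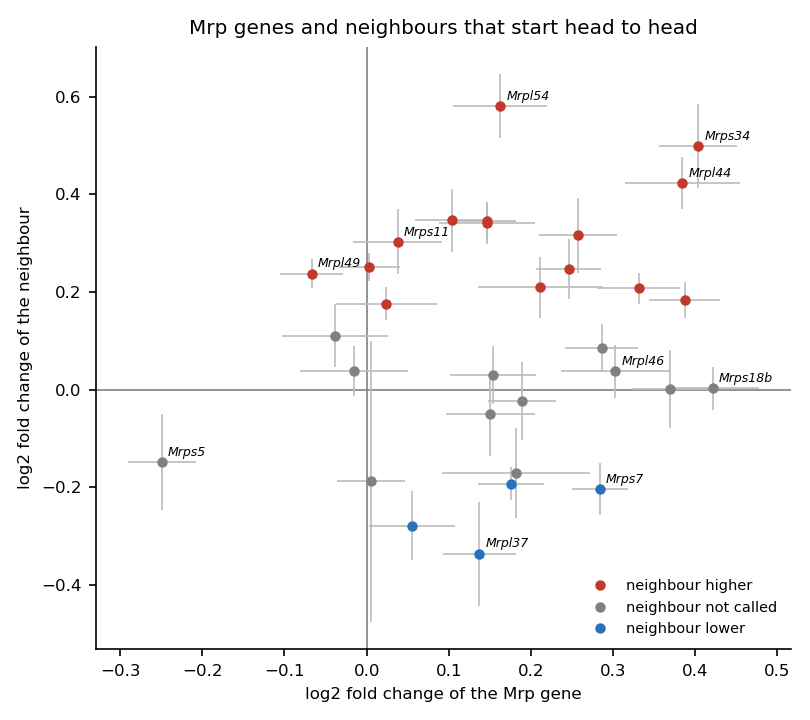
Log2 fold change of SAFB KD over control for members (x axis) and for the neighbour that starts within 1000 bases on the opposite strand (y axis), with standard errors. The plot shows 31 of the 33 pairs, with Mrpl46 and Mrps11 drawn from both sides, and leaves out 2 whose neighbour had a standard error over 0.5. Colours give the call of the neighbour, and pairs lie both above and below 0 on the y axis for members that rose.

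RefSeq promoters (GRCm38.p6, 250 bases before to 50 bases after the start) were matched for 68 of the 77 genes and searched on both strands for letters that transcription factors of housekeeping and mitochondrial genes are known to bind. The ETS core CCGGAAG, bound by the factor GABP among others, was present in 33.8% of member promoters and 17.8% of the 10486 promoters of protein-coding genes tested. The motif of NRF1, a factor of nuclear mitochondrial genes, was present in 19.1% and 10.1%, and that of YY1 in 10.3% and 2.44%. A TATAAA was present in 5.88% and 7.44%. NRF1 letters were found in 12 of the 49 members called higher (24.5%) and in 1 of the 18 not called (5.56%), while ETS letters were found in 32.7% and 38.9%. A match describes letters and shows no binding, and the shares were not tested. The RefSeq start nearest the annotated start was used, with no limit on the distance. That distance was 17016 bases for Mrpl33, 7979 for Mrps24, 3185 for Mrpl35 and 2496 for Mrpl36, and these windows are counted in the shares. The 5 promoters shown were picked because they belong to genes with large rises and to different motif classes, to a pair that diverged, or to the gene that fell, with the letters of the NRF1, ETS or YY1 motif in capitals.
Mrpl12 (chr11:120484387-120484686, plus strand): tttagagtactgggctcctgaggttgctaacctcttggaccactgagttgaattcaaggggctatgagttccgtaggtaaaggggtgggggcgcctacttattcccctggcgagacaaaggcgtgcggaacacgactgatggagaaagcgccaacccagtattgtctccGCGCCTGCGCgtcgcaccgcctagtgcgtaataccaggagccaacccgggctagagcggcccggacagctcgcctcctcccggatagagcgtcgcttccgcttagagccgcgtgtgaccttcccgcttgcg
Mrps22 (chr9:98601630-98601929, minus strand): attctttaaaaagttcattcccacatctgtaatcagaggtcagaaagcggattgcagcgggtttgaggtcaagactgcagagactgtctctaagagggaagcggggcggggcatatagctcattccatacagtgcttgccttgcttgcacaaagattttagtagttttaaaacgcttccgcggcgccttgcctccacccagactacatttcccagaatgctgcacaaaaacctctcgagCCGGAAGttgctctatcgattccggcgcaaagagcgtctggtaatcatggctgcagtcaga
Mrps30 (chr13:118387203-118387502, minus strand): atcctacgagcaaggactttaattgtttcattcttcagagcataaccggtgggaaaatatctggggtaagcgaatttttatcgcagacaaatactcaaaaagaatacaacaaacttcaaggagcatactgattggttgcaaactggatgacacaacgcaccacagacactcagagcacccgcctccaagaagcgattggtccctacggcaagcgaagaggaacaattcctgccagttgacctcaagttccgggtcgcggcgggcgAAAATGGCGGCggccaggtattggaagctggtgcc
Mrps11, in a window that overlaps that of Mrpl46 (chr7:78782881-78783180, plus strand): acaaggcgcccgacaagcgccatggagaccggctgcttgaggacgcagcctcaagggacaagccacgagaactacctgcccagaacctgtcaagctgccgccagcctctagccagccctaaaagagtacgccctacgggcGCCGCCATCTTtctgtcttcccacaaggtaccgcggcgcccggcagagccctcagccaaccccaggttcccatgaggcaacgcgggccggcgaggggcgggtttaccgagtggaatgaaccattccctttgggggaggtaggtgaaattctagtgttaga
Mrps5 (chr2:127587176-127587475, plus strand): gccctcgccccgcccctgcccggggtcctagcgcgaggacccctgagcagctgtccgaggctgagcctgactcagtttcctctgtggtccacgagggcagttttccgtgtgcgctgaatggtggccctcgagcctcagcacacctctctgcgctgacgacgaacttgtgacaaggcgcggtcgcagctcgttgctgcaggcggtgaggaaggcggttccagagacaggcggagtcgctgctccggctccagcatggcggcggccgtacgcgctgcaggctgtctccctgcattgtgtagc
The Mrpl12 promoter held the NRF1 letters starting at position -81 from the RefSeq start, and that of Mrps22 the ETS letters at -11. The YY1 letters lay just after the start in Mrps30, at position 16, and before it in Mrps11, at -110 on the opposite strand. The window of Mrps5, whose RefSeq start lies 204 bases from the GENCODE start, held none of the 3 motifs, which says only that these letters are not in it.

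The share called higher differed between the other gene lists of the mitochondrial ribosome. All 5 mitochondrial ribosomal protein genes without an Mrp symbol were higher, with a median log2 fold change of 0.38. Ptcd3, a small subunit protein at the entry of the messenger RNA, was at 117, 119 and 117 CPM in the control libraries and 153, 155 and 161 CPM in the SAFB KD libraries (0.41, adjusted p = 9.78e-14). Chchd1 (0.39), Aurkaip1 (0.38) and Dap3, a GTP-binding small subunit protein (0.32), followed, and the large subunit protein Gadd45gip1 rose by 0.24. Of 14 mitochondrial translation factors, 10 were higher and 1 lower. The elongation factor genes moved in both directions, with Tufm at 56.9, 54.8 and 53.8 CPM in the control libraries and 72.3, 67.3 and 69.2 CPM in the SAFB KD libraries (0.33, adjusted p = 4.39e-09) and Gfm1, the translocase, at 104, 102 and 102 CPM in the control libraries and 91.0, 84.5 and 86.5 CPM in the SAFB KD libraries (-0.23, adjusted p = 7.18e-07). Gfm2, the recycling factor (0.40), and Taco1, an activator of the translation of cytochrome oxidase (0.39), were higher.

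Of 28 assembly factors, 12 were higher and 2 lower (median 0.12), a share of 42.9% higher. The share higher was 27.6% of protein-coding genes tested, and 35.9% of those with a mean of 10 CPM or more. The assembly factors with the smallest adjusted p were Ngrn (0.45), the protease Afg3l2, which processes the Mrpl32 protein (0.28), Malsu1 (0.37) and the GTPase Gtpbp10 (0.60). Of 20 aminoacyl-tRNA synthetases and amidotransferase subunits of mitochondria, 6 were higher and 2 lower (median 0.02), with Mars2 (0.38) and Gatb (0.39) higher and Iars2 lower (-0.22). Of 19 listed genes of mitochondrial transcription and RNA processing, 17 were tested, of which 14 were higher and 0 lower (also 0 at an unadjusted p under 0.05, by DESeq2 and by limma-voom). Trmt10c, a subunit of mitochondrial RNase P, rose by 0.42, Fastkd5 by 0.55, the tRNA 3′ processing gene Elac2 by 0.27 and the RNA-binding protein gene Lrpprc by 0.25.

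The last lists hold the products of the mitochondrial ribosome and the genes of its partners in the cell. Of the 13 mitochondrially encoded proteins, 6 were higher and 0 lower (0 at an unadjusted p under 0.05 and 0 by DESeq2, but 1 by limma-voom), with mt-Nd1 at 6746, 7326 and 7745 CPM in the control libraries and 8343, 8171 and 9270 CPM in the SAFB KD libraries (0.24, adjusted p = 3.22e-07). The count of mt-Co2, at 32.7, 39.4 and 42.2 CPM in the control libraries and 54.6, 49.9 and 51.4 CPM in the SAFB KD libraries, was far below that of mt-Co1, at 15611, 16252 and 16414 CPM in the control libraries and 15997, 16802 and 18350 CPM in the SAFB KD libraries, and nuclear copies of mitochondrial DNA can share reads with these genes, so values of single mitochondrial genes are uncertain. Both mitochondrial ribosomal RNAs were called higher, mt-Rnr2 by 0.25 and mt-Rnr1 by 0.24, in libraries selected for poly(A), though by DESeq2 only mt-Rnr2 was. Of 81 nuclear genes for oxidative phosphorylation subunits, 57 were higher and 2 lower (median 0.16), with Uqcrq (0.51) and Atp5b (0.40) among those with the smallest adjusted p. Of 80 genes picked by a cytosolic ribosomal protein symbol, 72 were higher and 1 lower (median 0.22, with many pseudogenes that can share their reads). Rps3 rose by 0.39, as did Rpl7l1, an Rpl7-like gene that the symbols took in, by 0.61, while Rpl13a was lower (-0.17). The mitochondrial ribosomal protein genes, at a median of 0.20, thus lay between these families, and nothing was tested that would set them apart.

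**Figure D5:**
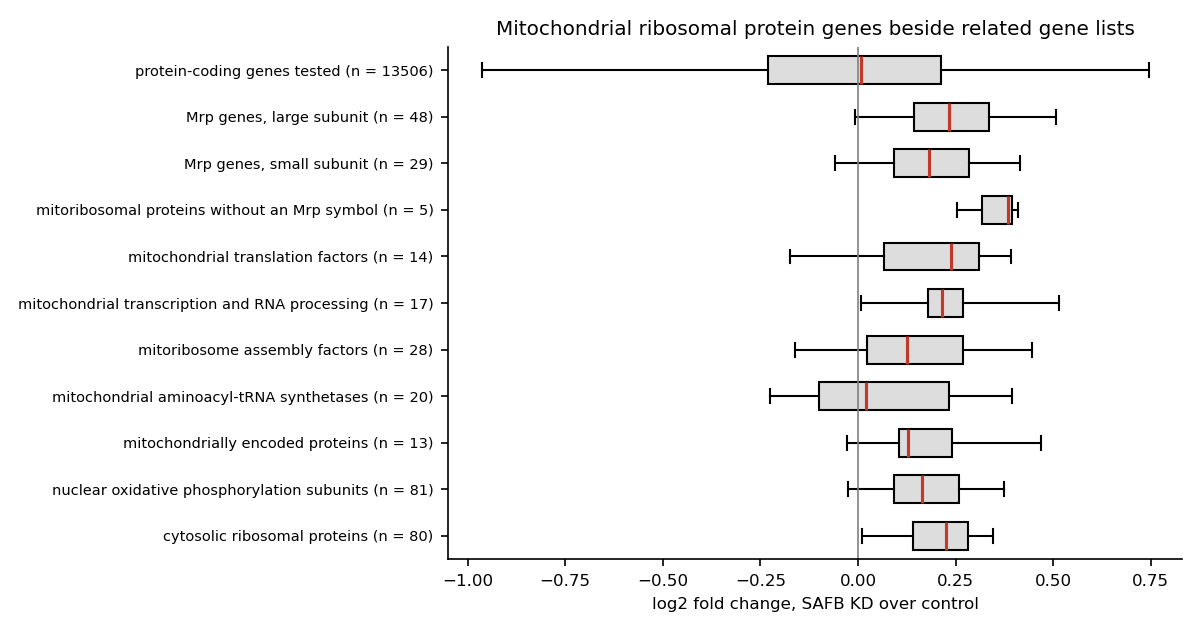
Log2 fold change of SAFB KD over control (x axis) for the Mrp genes beside 8 related lists and all protein-coding genes tested. The red line is the median, the box spans the middle 50% of genes and the whiskers the 5th to 95th percentile, and the Mrp boxes lie to the right of 0 while that of all protein-coding genes straddles it.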

How the data were processed

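The deposited files hold read counts per gene for 3 control and 3 SAFB KD libraries. The study's methods and the submitters' processing notes name adapter trimming and STAR 2.7.9a with its gene counting, read as reverse-stranded counts, on the mouse build GRCm38. The deposited counts are whole reads per Ensembl gene, taken here as raw counts. Gene names came from the GENCODE annotation of GRCm38, which matched 54495 of 54532 identifiers. Genes with 10 or more reads summed over the 6 libraries were kept (19452). Such counting leaves out reads that overlap more than a single gene on the same strand.

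Counts were scaled by TMM and tested with the edgeR quasi-likelihood test (edgeR 4.0.16, R 4.3.3, no covariate, two-sided), with Benjamini-Hochberg adjustment over all genes tested and calls at an adjusted p under 0.05. Intervals are 95% intervals from the same fit. A change beyond 2-fold was tested with glmTreat. RPKM values used merged exons. The biological coefficient of variation was 3.49%. P-values measure the spread between these libraries only. The steps were tested on simulated data. Alternatives used other scalings, filters, DESeq2 1.42.0, limma-voom 3.58.1, a replicate block and each library left out in turn.

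Values per library are given for the 12 greatest rises and 12 greatest falls among called genes whose groups did not overlap (a single fall qualified), for the 3 highest levels per subunit, and for the Mrps18 genes, Mrps30 and Mrps36, beside up to 4 genes of every other list by adjusted p. A gene that this rule names is not reported here. Mrpl23, Mrpl49, Mrps6, Slc5a3 and mt-Co1, outside this rule, were added after their values were seen. The members and lists were chosen with earlier results of these data known.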

Additional observations from a re-analysis of the deposited data

How the results depend on the processing

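Of the 57 mitochondrial ribosomal protein genes called, 45 kept their call under every alternative and none changed sign. The 12 that lost it under at least 1 alternative were Mrpl3, Mrpl11, Mrpl14, Mrpl20, Mrpl37, Mrpl41, Mrpl54, Mrpl57, Mrps2, Mrps17, Mrps27 and Mrps31, all with a log2 fold change of 0.10 to 0.21. The count called higher was 49 with DESeq2, 56 with limma-voom and 44 with library totals alone, a scaling that moved the median of all genes from 0.01 to -0.03. That scaling also gave 2 lower members in place of 1 and 1 lower large subunit gene in place of 0, Mrpl49 being the addition. With each library left out in turn, the count was 46 to 54 (47 without control 3), with 31 to 35 large and 14 to 19 small subunit genes, and the median log2 fold change was 0.19 to 0.22. The difference between the subunits' medians was 0.04 to 0.07 under the alternatives. The labels do not say whether the replicate numbers pair the libraries. In their deviations from the group means, same-numbered libraries correlated at 0.051, 0.012 and -0.0019. Control 1 and SAFB KD 1 correlated best with each other, but not every library did so with its own number. Such correlations cannot exclude a pairing. With the replicate block the counts stayed at 56 higher and 1 lower, the same 57 genes. No alternative called a member beyond 2-fold. Depth limits Mrpl23 most, as the member with the lowest level and the widest standard error (0.12).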

Other observations

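Genes of factors known to control nuclear genes of mitochondria moved in both directions. Of 10 listed regulators, 3 were called higher and 2 lower in the edgeR quasi-likelihood test. Among all protein-coding genes tested, 27.6% were called higher and 25.7% lower, so these counts alone do not set the regulators apart. Myc, a driver of growth and of ribosome and mitochondrial biogenesis, was at 107, 99.2 and 94.9 CPM in the control libraries and 176, 195 and 193 CPM in the SAFB KD libraries (log2 fold change 0.90, adjusted p = 9.86e-22), and Esrra, the estrogen-related receptor alpha, was at 13.0, 12.6 and 14.0 CPM in the control libraries and 18.0, 20.7 and 18.1 CPM in the SAFB KD libraries (0.53, adjusted p = 3.20e-08). Ppargc1a, a coactivator of mitochondrial genes, was lower at 20.9, 20.2 and 20.9 CPM against 25.8, 25.7 and 24.7 CPM in control (-0.30, adjusted p = 2.46e-05), and Gabpb2, a subunit of the ETS factor GABP, was lower as well (-0.36). Nrf1 itself was not called (0.10, adjusted p = 0.103), nor were Gabpa (-0.06) and Yy1 (0.04). The part of these genes in the changes of the mitochondrial ribosomal protein genes was not tested.

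Some members share exons with another gene on the same strand. Mrps6 shares 10.4% of its merged exons with Slc5a3, an inositol transporter gene that starts at nearly the same place (chr16:92058322-92087473, GRCm38). Slc5a3 was at 110.2, 100.2 and 102 CPM in control libraries and rose in SAFB KD (0.44, adjusted p = 2.34e-12), whereas Mrps6 was at 29.8, 32.4 and 31.6 CPM in the control libraries and 29.9, 30.1 and 29.3 CPM in the SAFB KD libraries and was not called (-0.07, adjusted p = 0.286). Mrpl53 (chr6:83109040-83109939), the gene that matched the symbol rule but not the read limit, had 0 reads in all 6 libraries, and 88.0% of its merged exons are shared with Gm42688 on the same strand. The processed pseudogenes Mrpl23-ps1, Mrpl48-ps, Mrps36-ps1 and Mrps36-ps2 held 20, 73, 26 and 13 reads summed over the 6 libraries, and Mrps36-ps3 held 0.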
